A study of Mus musculus with 4 samples.

Results

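A set of 1247 accessible sites had peaks in 2 of 4 libraries, those labelled replicates 1 and 2, and no peak in those labelled 3 and 4. The sites were selected on measured values. The longer peak lists of the 4 libraries were merged on chromosomes 1 to 19, and a member had a peak in replicates 1 and 2, each higher than the median peak of its library, and no peak in replicate 3 or 4. Of 84292 merged sites, 51277 were called in both replicates 1 and 2 and 29566 of these (called eligible here) exceeded both medians. The members were 4.22% of the eligible sites, a share that the selection itself fixes, and 28164 eligible sites were called in replicate 3. Another 155 were called in replicate 4 and not in 3, and 11283 sites of any height were called in replicates 1 and 2 alone.

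The libraries were DNase-seq libraries, in which DNase I cuts open chromatin and the cut ends are sequenced. All came from primary cells labelled CD8-positive, naive and resting alpha-beta T cells, taken from female B6CASTF1/J mice aged 2 months, the offspring of a cross between a laboratory strain and a wild-derived strain. They form 1 group of 4 libraries. The labels give each library its own biosample and all of them the same donor identifier, and do not state that they came from separate animals. No comparison of treatments exists, so members are set beside other sites and no test over samples was possible. Intervals given with shares are 95% intervals over sites and cover counting error only.

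DNase I hypersensitive sites mark promoters, enhancers and insulators where nucleosomes are displaced, and a footprint is a short stretch inside such a site that is protected from cutting, as when a protein is bound. In naive CD8 T cells the open sites around lineage genes are bound by factors such as TCF7, LEF1, RUNX and ETS proteins, which keep T cell identity and quiescence. The coreceptor genes Cd8a and Cd8b1 are controlled by a cluster of enhancers that lies around and between them.

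The sequences of 8 members are given because they show what the sites look like at genes of the T cell programme and at the highest members. They are the reference sequence of mm10 (GRCm38, from RefSeq) on the plus strand, 5′ to 3′, with the bases of replicate 1 footprints in capitals. The Cd8a site lay at chr6:71351301-71351487, 22033 bp upstream of Cd8a, in intergenic sequence between Cd8b1 and Cd8a. The Tcf7 site (chr11:52262061-52262240), the Lef1 site (chr3:131170381-131170600), the Bcl11b site (chr12:107977641-107977860), the Satb1 site (chr17:51800301-51800520) and the Il7r site (chr15:9528001-9528280) lay in introns of these genes. The Zfp692 site (chr11:58301841-58302120, intergenic, 5089 bp upstream) and the Mex3b site (chr7:82866441-82866680, 773 bp upstream of the coding start and 514 bp from the start of Gm36584) were the 2 highest members.
Cd8a site: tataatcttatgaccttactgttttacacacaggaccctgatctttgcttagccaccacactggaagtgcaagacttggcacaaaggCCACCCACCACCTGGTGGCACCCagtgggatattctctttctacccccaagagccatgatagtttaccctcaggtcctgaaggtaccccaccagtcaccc
Tcf7 site: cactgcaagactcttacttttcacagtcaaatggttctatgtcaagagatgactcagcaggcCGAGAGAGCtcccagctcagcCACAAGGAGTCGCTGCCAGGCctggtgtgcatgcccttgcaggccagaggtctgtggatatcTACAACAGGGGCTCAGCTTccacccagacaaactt
Lef1 site: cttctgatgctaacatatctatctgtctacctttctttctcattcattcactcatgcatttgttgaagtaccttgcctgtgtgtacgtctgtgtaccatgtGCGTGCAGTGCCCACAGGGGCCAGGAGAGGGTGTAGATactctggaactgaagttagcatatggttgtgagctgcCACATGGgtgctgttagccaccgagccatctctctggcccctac
Bcl11b site: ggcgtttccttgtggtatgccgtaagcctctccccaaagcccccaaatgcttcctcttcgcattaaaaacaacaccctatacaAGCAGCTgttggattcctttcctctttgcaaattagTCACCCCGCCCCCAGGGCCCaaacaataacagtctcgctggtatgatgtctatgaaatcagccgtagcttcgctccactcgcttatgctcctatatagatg
Satb1 site: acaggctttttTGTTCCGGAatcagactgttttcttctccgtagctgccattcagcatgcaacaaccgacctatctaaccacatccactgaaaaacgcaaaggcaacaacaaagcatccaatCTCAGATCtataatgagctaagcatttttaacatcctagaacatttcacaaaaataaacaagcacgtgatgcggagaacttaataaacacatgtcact
Il7r site: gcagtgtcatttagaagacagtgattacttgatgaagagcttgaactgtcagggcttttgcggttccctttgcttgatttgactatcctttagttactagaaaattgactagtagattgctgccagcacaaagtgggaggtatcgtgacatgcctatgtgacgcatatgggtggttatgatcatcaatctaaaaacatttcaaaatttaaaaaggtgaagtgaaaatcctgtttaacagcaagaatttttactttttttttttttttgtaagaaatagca
Zfp692 site: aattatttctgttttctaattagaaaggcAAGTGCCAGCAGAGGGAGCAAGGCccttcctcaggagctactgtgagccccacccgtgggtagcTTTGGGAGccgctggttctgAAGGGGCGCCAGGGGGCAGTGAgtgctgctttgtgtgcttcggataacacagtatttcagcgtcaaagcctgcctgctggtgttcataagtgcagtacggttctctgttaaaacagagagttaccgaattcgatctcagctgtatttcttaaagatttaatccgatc
Mex3b site: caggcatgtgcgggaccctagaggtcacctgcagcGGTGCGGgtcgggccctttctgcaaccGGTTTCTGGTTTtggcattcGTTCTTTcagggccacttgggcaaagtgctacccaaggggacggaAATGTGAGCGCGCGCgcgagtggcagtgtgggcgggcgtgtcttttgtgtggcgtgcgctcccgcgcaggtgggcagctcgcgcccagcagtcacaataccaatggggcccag

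The footprint of the Cd8a site held the E-box word CACCTG. At Bcl11b 1 footprint overlapped the E-box word CAGCTG and the other held the SP word CCCGCCC. Zfp692 and Mex3b rank highest by the lower of their relative heights in replicates 1 and 2, each height divided by the library's median at the 17134 sites called in all 4 libraries. A footprint of the Zfp692 site held CCAGGGGGC, a match to the core of the motif of the insulator protein CTCF, and a footprint of the Mex3b site overlapped the matches GCGCGCGCG and CGCGCGCGC to the motif of NRF1. The Il7r site had no footprint in replicate 1 and 1 in replicate 2. It abutted a replicate 3 peak, and replicate 3 cut-rate intervals covered 97.1% of its length.

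In replicates 1 to 4 the longer lists had 69413, 70552, 51121 and 20647 entries, and the smallest step between peak heights gave totals of 109, 62.9, 91.5 and 24.3 M tags. Replicate 3 was therefore the deeper library of replicates 2 and 3, while replicate 4 was the shallowest of all and called 23.7% of the sites of equal height described below. Depth is not the only difference between the libraries. At the sites called in all 4, the median depth-scaled height was 4.18, 8.43, 3.20 and 2.34 in replicates 1 to 4. Relative heights divide by these medians and so hide this difference, and its part in the missing calls was not tested. As a check of the labelled cell type, the highest peaks within 1 kb of a start were summed over marker genes as relative heights. The T lineage sum was 23.7, 21.2, 20.2 and 13.0 in replicates 1 to 4, with 28, 28, 25 and 11 of 29 promoters called. The B cell sum was 3.66, 4.41, 7.38 and 7.04, with 12, 12, 16 and 9 of 19 promoters called, and was highest in replicate 3. Among the defining genes, Pax5 stood at 1.01 in replicate 3, against 0.579 and 0.642 in replicates 1 and 2, and Cd79a at 0.345, against 0 in both, while Fcer2a and Spib were called in none of the 4. Sums for NK cells were at most 0.239 with at most 1 of 13 promoters called, and those for myeloid cells were 3.15, 2.62, 4.42 and 3.74. Cd8a had a promoter peak in replicates 1 and 2 and none in replicates 3 and 4, which taken alone goes against their label. This site is itself a member, chosen for having no peak there. Cd8b1 had a promoter peak in all 4 libraries, at 1.11, 1.42, 1.02 and 0.596. The CD8 lineage sum was 8.12, 8.39, 7.27 and 6.58, with 9, 9, 8 and 5 of 9 promoters called. The part of cell composition in the sites described here was not tested, and fewer cells with an open site cannot be told apart from less cutting per cell.

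Heights of the members chose them and are given as a description. In replicate 1 they ranged from 0.975 to 8.31 with a median of 1.34, and in replicate 2 from 1.70 to 14.8 with a median of 2.38, in units of depth-scaled peak height. The lowest member in replicate 1 lay just above the library median of 0.966, which was also the highest value left out, and 742 sites missed the set by this height alone. In replicate 2 the lowest member at 1.70 stood beside a highest value left out of 1.69, and 635 sites missed the set by that height alone. Most members were thus moderate peaks, at a median of 0.322 and 0.283 of the height typical of sites shared by all 4 libraries. Heights in replicates 1 and 2 had a Spearman correlation of 0.532 over the 1247 members, which share a selection on both heights.

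**Figure D1:**
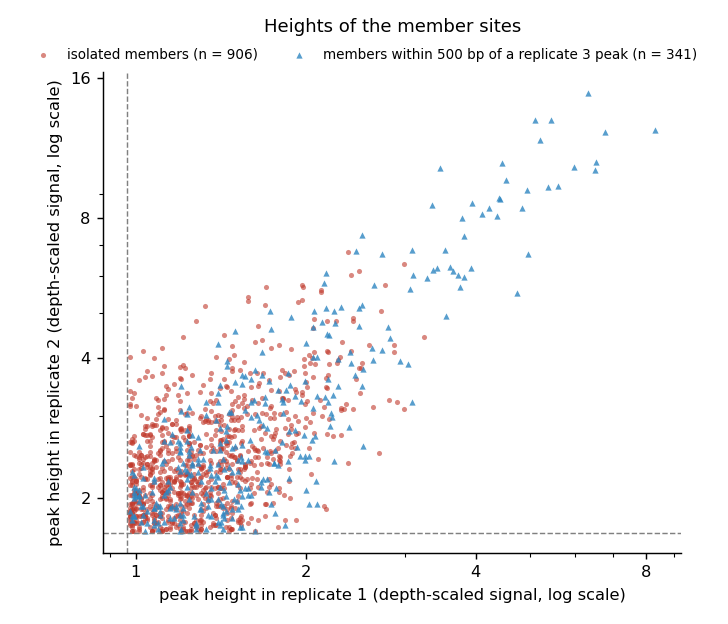
Peak heights of the 1247 members in replicate 1 (x axis) and replicate 2 (y axis), in depth-scaled signal on log scales; each point is a site, dashed lines are the library medians of 0.966 and 1.69, and triangles are the 341 members within 500 bp of a replicate 3 peak. The upper right corner, with the highest members, holds triangles.

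Each member was paired with an eligible site called in replicate 3 that had nearly the same heights in replicates 1 and 2. The 1247 equal-height sites differed from their members by a median of 0.01 and at most 0.06 on the log2 scale, and had the same median heights of 1.34 and 2.38. In replicate 3 they had heights from 0.339 to 5.92, with a median of 0.984, against a median of 1.03 over all replicate 3 peaks. A call in replicate 3 is part of their choice, and no other value of that library was used.

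Members fell into 2 kinds by their distance to the nearest replicate 3 peak. A total of 341 (27.3%) lay within 500 bp of a peak called in replicate 3, 145 of them within 100 bp and 26 directly abutting it, while 906 had no replicate 3 peak within 500 bp and are called isolated. A neighbour within 500 bp was as frequent around the equal-height sites, of which 26.8% had another replicate 3 peak that near. When members were ranked by the lower of their relative heights and split into 5 groups, 46.4% of the 250 highest lay within 500 bp of a replicate 3 peak, against 18.8% to 25.5% in the other groups. This split was made after the values had been seen.

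All 12 of the highest members lay within 220 bp of a replicate 3 peak and were covered over 100% of their length by replicate 3 cut-rate intervals, so replicate 3 held cuts at these 12 without a peak of its own there. The Zfp692 site had heights of 6.33 and 14.8 in replicates 1 and 2, the Mex3b site 8.31 and 12.3, and the site at Spata48 6.79 and 12.2. Those nearest to Rprd2, Dbnl (an actin-binding adaptor), Dgat1 (an enzyme of triglyceride synthesis), Plekhg2, Gmfg, Idi1 (an enzyme of isoprenoid synthesis), Mblac2, Setd5 and Pias4 (a SUMO ligase) followed, with replicate 1 heights from 4.94 to 6.52. Except at Zfp692, all of them lay within 1 kb of a start. In replicate 3, 11 of the 12 carried a footprint, with 7 each at Mex3b and Idi1 and 0 at Pias4.

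The cut-rate files list intervals whose false discovery rate is below 0.05, and show what replicate 3 held at the members. All members and all equal-height sites had such an interval in replicates 1 and 2. In replicate 3, 405 of 1247 members (32.5%, 95% interval 29.9 to 35.2) had one, against all 1247 equal-height sites and 63.6% of all merged sites. This share depends on how members are drawn: it was 85.8% with the shorter peak lists, 73.0% when peaks were joined only at 50% reciprocal overlap, 86.2% above the 75th percentile and 16.7% with no floor on height. Since replicate 3 peak calls chose both sets and rest on the same cuts, this is a description of how far the members lay below the call. Among the isolated members 15.0% had an interval and 3 of 906 were covered over at least 50% of their length. Among the neighbouring members 78.9% had one and 71.0% were covered to that extent. In replicate 4 the shares were 8.10% of members and 27.1% of equal-height sites.

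In the libraries where they were called, members held a footprint slightly less often than equal-height sites and about as many per kb. In replicate 1, 1084 of 1247 members (86.9%) held a footprint, against 91.5% of equal-height sites and 59.0% of all merged sites. In replicate 2 the shares were 86.8% of members, 91.7% of equal-height sites and 56.9% of all sites. The differences were -4.57 percentage points (95% interval -7.00 to -2.14) in replicate 1 and -4.89 (-7.32 to -2.46) in replicate 2. With the shorter peak lists they were -0.995 (-3.07 to 1.08) and -0.871 (-3.13 to 1.39), and above the 75th percentile -1.72 (-5.07 to 1.63) and -5.17 (-10.9 to 0.527), so the intervals then included 0. Per kb of site the members had 8.56 and 8.15 footprints in replicates 1 and 2, against 8.59 and 7.58 in equal-height sites. The members were narrower, with a median of 220 bp against 260 bp, and a merged site can only widen as more libraries are called in it. Isolated members had a footprint in 96.2% and 96.5% of cases in replicates 1 and 2, against 97.9% and 98.5% of isolated equal-height sites, which were paired with them in the same way and had no other replicate 3 peak within 500 bp. Members near a replicate 3 peak had one in 62.2% and 61.0%.

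In replicate 3, 91 members (7.30%) held a footprint, against 84.8% of equal-height sites and 44.9% of all sites. All 91 were among the 341 members near a replicate 3 peak, of which 26.7% held one. None of the 906 isolated members had a footprint in replicate 3 or in replicate 4. Footprint lists hold only calls past a threshold of 0.01, so this count sets no limit on weaker protection. Footprints had a median width of 10 bp in members and 9 bp in equal-height sites in replicate 1, and of 10 bp in both in replicate 2.

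**Figure D2:**
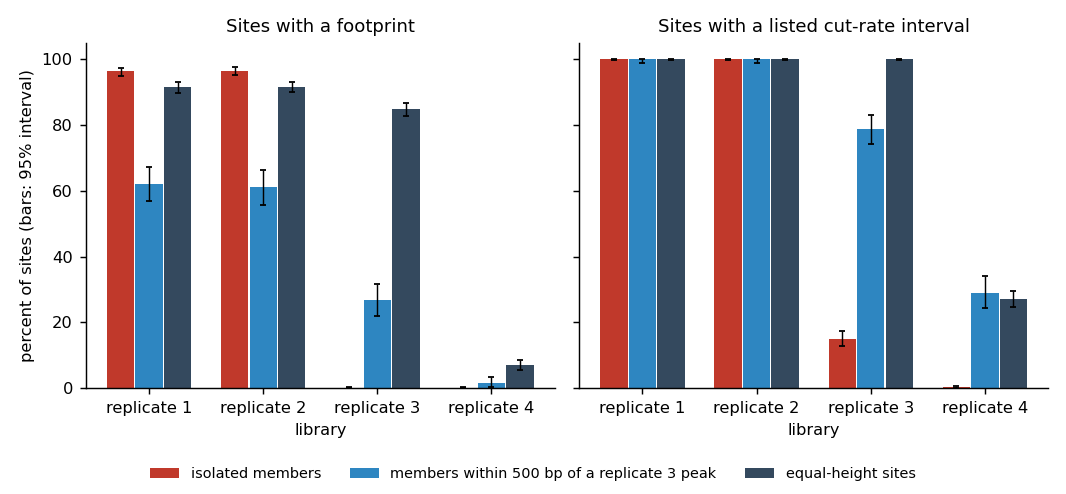
Percent of sites with a footprint (left) and with a listed cut-rate interval (right) in each library, for isolated members (n = 906), members within 500 bp of a replicate 3 peak (n = 341) and equal-height sites (n = 1247); error bars are exact 95% intervals. Isolated members stood above 96% in replicates 1 and 2 and at 0 in replicates 3 and 4 for footprints, while neighbouring members kept intervals in 78.9% of cases in replicate 3.

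By location, members lay in introns more often than equal-height sites and near starts less often, but neither difference held against equal-height sites that were also missing in replicate 4. Introns held 39.8% of members and 33.4% of equal-height sites, a difference of 6.42 points (95% interval 2.64 to 10.2), against 31.7% of all sites. Intergenic sequence held 345 members and 349 equal-height sites, and exons 62 and 61. Starts of annotated genes lay within 1 kb of 27.6% of members and 33.8% of equal-height sites, a difference of -6.17 points (-9.79 to -2.56), against 37.0% of all sites. The share was lower in members on 14 of 19 chromosomes. Equal-height sites that were also missing in replicate 4 had a start within 1 kb in 26.1% of cases, and the difference then turned to 1.44 points (-2.04 to 4.92). Against the same sites the intron difference was 2.81 points (-1.01 to 6.62) and the intergenic difference -3.93 points (-7.51 to -0.349). The difference at starts was also positive when replicate 4 was left out (0.785 points), when peaks were joined only at 50% reciprocal overlap (3.19) and when both heights had to pass the 75th percentile (34.5 points, 58 members), so its direction depends on these choices. Members made up 3.26% of eligible sites on chromosome 12 and 6.03% on chromosome 6, the lowest and the highest of the 19 chromosomes.

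Isolated and neighbouring members lay in different places. Of isolated members 12.3% lay within 1 kb of a start and 49.0% in introns, against 21.2% and 40.7% of isolated equal-height sites. The differences were -8.94 points (95% interval -12.4 to -5.53) for starts and 8.28 points (3.71 to 12.8) for introns. Of these isolated equal-height sites 15.0% were called in replicate 4, where no member was. Isolated sites also missing in replicate 4 were not compared, so whether these differences hold against them was not tested. Of members near a replicate 3 peak 68.3% lay within 1 kb of a start and 15.2% in introns. Over 10 kb from any start lay 25.9% of members and 30.4% of equal-height sites, and the median distance to a coding start was 5512 bp and 6154 bp.

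**Figure D3:**
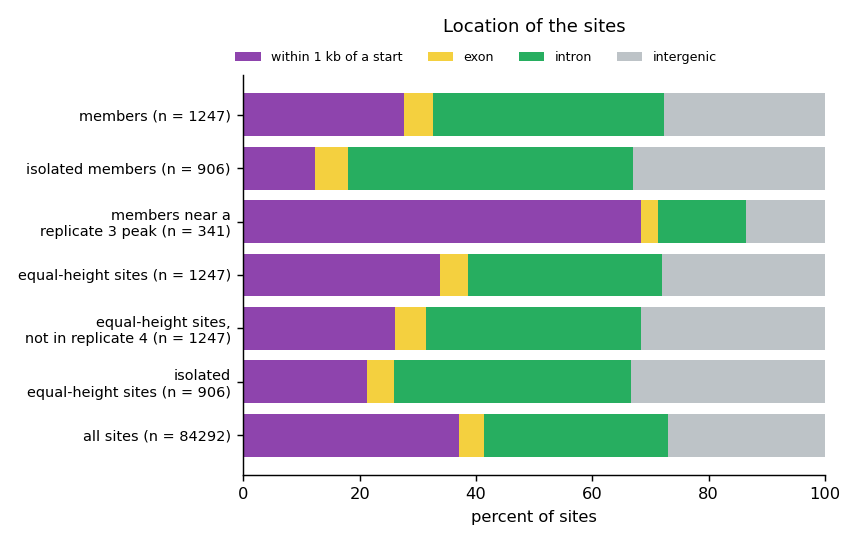
Stacked bars of the percent of sites within 1 kb of a start, in exons, in introns and in intergenic sequence, for the members and their 2 kinds, 3 sets of equal-height sites and all merged sites. Isolated members have the largest intron share of the 7 sets shown (49.0%), and members near a replicate 3 peak the largest share at starts (68.3%).

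Groups of members lay at several genes of the T cell programme. Members were nearest to 959 coding genes, 7.80% of the 12292 coding genes nearest to any eligible site. Of these, 56 genes had at least 3 members, against 13 genes with at least 3 equal-height sites, and 16 genes had at least 5, against 0. Genes of the T lineage and the T cell receptor complex were nearest to 37 members out of 216 eligible sites (17.1%), against 4.22% over all eligible sites and 8 equal-height sites. They came from 16 of the 29 genes of the list, and 35 of the 37 sites were isolated. CD8 lineage genes were nearest to 9 members of 52 eligible sites (17.3%), at 4 of 9 genes, against 3 equal-height sites. Of these 9 members, 6 were nearest to Cd8a and 1 to its neighbour Cd8b1. Itgae had 1 of 5 eligible sites, Cd226 1 of 3 and Runx3 0 of 15, so this share came mostly from the Cd8 locus. The lists were chosen with earlier results of these libraries known, so these shares describe the loci. The summed T lineage promoter height was 20.2 in replicate 3, against 23.7 and 21.2 in replicates 1 and 2, and the B cell sum 7.38, against 3.66 and 4.41, and their part in these counts was not tested. In the other direction, 129 sites were called in replicate 3 above its median and not in replicates 1 or 2. Of these, 5 were nearest to T lineage genes, 0 to CD8 lineage genes and 3 to B cell genes. All replicate 3 sites above its median were not counted by list. These counts therefore have no share beside them and cannot be compared with those of the members.

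Cd8a (CD8 coreceptor, alpha chain) had 6 members among its 7 eligible sites. They lay 22033, 19509 and 15707 bp upstream of its start, at the promoter (7 bp from the start), in an exon 3347 bp downstream and beyond the gene 8335 bp downstream. These and the distances that follow are from the nearest annotated start of the named gene. The upstream sites at 19509 and 15707 bp lay over the annotated genes Gm44174 and Gm44175. The 6 members had heights from 1.31 to 2.20 in replicate 1 and from 2.31 to 4.64 in replicate 2. They held 11 footprints in replicate 1, 17 in replicate 2 and 0 in replicate 3, and 1 of the 6 touched a replicate 3 cut-rate interval, over 3.21% of its length. The eligible site at Cd8a that replicate 3 called had a relative height of 0.440 in replicate 3, against a mean of 0.547 in replicates 1 and 2. Cd8b1, the beta chain, had 1 member of 2 eligible sites, in intergenic sequence 18622 bp downstream of its start with heights of 1.76 and 3.05, and its other site stood at a relative height of 1.02 in replicate 3, against a mean of 1.26 in replicates 1 and 2. Itgae, an integrin chain of CD8 T cells resident in epithelia, had 1 member, with heights of 1.98 and 5.69. Runx3, which silences Cd4 in CD8 T cells, had 0 members of 15 eligible sites.

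Tcf7 encodes TCF-1, a factor that establishes and maintains naive T cells, and had 5 members of 13 eligible sites. Among them was the promoter site (heights 1.44 and 2.51), with 8 footprints in replicate 1 and 3 in replicate 2. Cut-rate intervals covered 100% of this site in replicate 1 and 30.8% in replicate 2. The others lay 1301 and 20421 bp inside the gene and 1324 and 27956 bp upstream. None of the 5 touched a replicate 3 cut-rate interval. At all 8 Tcf7 sites that replicate 3 did call, its relative height was below the mean of replicates 1 and 2, as it was at 57.7% of all eligible sites called in replicate 3. Lef1, a relative of Tcf7, had 6 members of 20, all inside the gene between 24567 and 56634 bp from the start, with heights up to 2.41 and 6.02. The same was so at 10 of 14 such sites at Lef1, 12 of 13 at Bcl11b, 11 of 19 at Satb1 and 5 of 7 at Thy1, and outside the T lineage list at 8 of 15 at Runx3, 6 of 16 at Ccr7 and 7 of 18 at S1pr1. Bcl11b, which commits thymocytes to the T lineage, had 4 of 17 and Ets1 4 of 24. Thy1, a T cell surface protein, had 3 of 10, including a promoter site 71 bp upstream of a start. Replicate 3 did have another peak within 1 kb of a Thy1 start, at a relative height of 0.338. Satb1, a chromatin organiser of thymocytes, had 2 of 21.

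**Figure D4:**
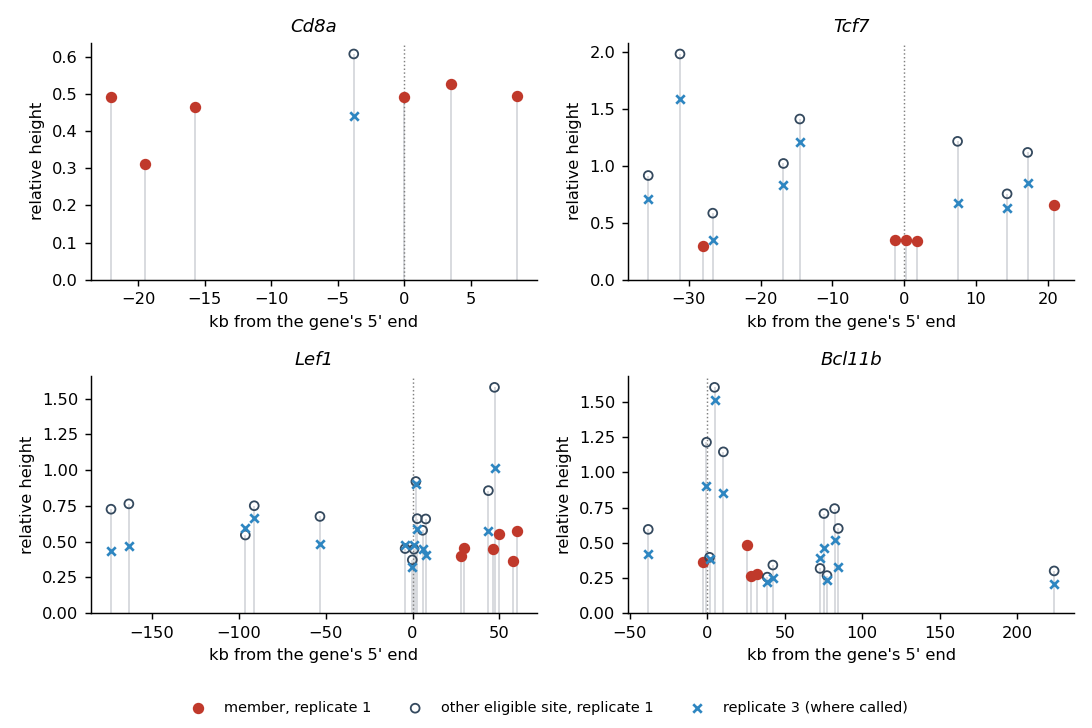
Relative height of the eligible sites nearest to Cd8a, Tcf7, Lef1 and Bcl11b by distance from the gene's 5′ end in kb. Filled circles are members and open circles other eligible sites, both in replicate 1, and crosses are replicate 3 where called. At Cd8a, 6 of 7 sites are members; at Tcf7, 3 members lie close to the start; at Lef1, the 6 members lie inside the gene.

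The 10 genes nearest to the most members had 5 to 7 each. Fam169b had 7 of 16 eligible sites, all 7 between 335 bp upstream and 5521 bp downstream of its start and up to 2.99 and 6.36 high. Grap2, which encodes GADS, an adaptor that links LAT to SLP-76 in T cell receptor signalling, had 7 of 12, all in its introns and none touching a replicate 3 cut-rate interval. Pitpnc1, a phosphatidylinositol transfer protein, had 7 of 18. With 6 members each stood Lef1 and Cd8a, Cbx8 (a Polycomb chromodomain protein, 6 of 9, in an intergenic run from 6521 to 15841 bp upstream), Rgs10 (a regulator of G protein signalling, 6 of 14), Foxp1 (a factor of T cell quiescence, 6 of 27) and Mbnl1 (a splicing regulator, 6 of 19). Dad1, a subunit of oligosaccharyltransferase, was the nearest coding gene of 5 members of 20, which lay at the neighbouring T cell receptor alpha locus. Of these, 3 lay 702, 73 and 171 bp from the starts of the joining segments Traj22, Traj7 and Traj1, 1 in an intron of the constant gene Trac and 1 in intergenic sequence 4810 bp from its start. The intronic Trac site abutted a replicate 3 peak, held 1 footprint there and was covered over 47.5%, while the 3 joining-segment sites touched no replicate 3 interval.

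The list of naive and quiescent T cell genes had 16 members of 237 eligible sites (6.75%), against 21 equal-height sites. Foxp1 held 6 of these 16. Txnip, a regulator of glucose uptake, had 2 of 7, Foxo1 1 of 18 and Il7r, the interleukin-7 receptor subunit for T cell survival signals, 1 of 7. The Foxo1 site lay at the promoter, 260 bp from a replicate 3 peak, and replicate 3 intervals covered 89.2% of it. Ccr7, the chemokine receptor of lymph node entry, had 0 of 16 and S1pr1, the receptor of lymph node exit, 0 of 18. At these genes replicate 3 called every eligible site, with median relative heights of 0.536 at Ccr7 and 0.643 at S1pr1, beside medians of 0.556 and 0.504 in replicates 1 and 2.

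Effector and helper genes had shares closer to that of all eligible sites. Cytotoxic effector and memory genes had 4 members of 79 (5.06%), with 2 at Il18r1, a receptor chain for interleukin-18, and 1 each at Fasl and Zeb2. Gzmb, Prf1, Ifng, Tbx21 and Eomes had 0 of 3, 2, 3, 2 and 5. Activation and exhaustion genes had 7 of 153 (4.58%), with 2 each at Cd69, an early activation marker, and Nfatc1, and 1 each at Nr4a2, Nr4a3 and Tnfrsf9. Cytokine receptor and STAT genes had 9 of 141 (6.38%), with 3 at Tgfbr2, a receptor for TGF-beta, and 1 each at 6 genes, among them Ifngr2, Il12rb1 and Stat5b. CD4 helper and regulatory genes had 3 of 56 (5.36%), with 2 at Bcl6 and 1 at Il21, and 0 of 2 at Cd4 and 0 of 3 at Zbtb7b, the helper lineage factor. At all 3 Zbtb7b sites replicate 3 stood above the mean of replicates 1 and 2. Cd3e and Cd28 had 0 of 6 and 0 of 5.

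Genes of other cell types gave few members on few eligible sites. B cell genes had 1 of 28 (3.57%), at Cd79b (B cell receptor signalling), with 0 of 4 at Pax5 and no eligible site at Cd79a. Myeloid and dendritic genes had 1 of 27 (3.70%), at Cebpb, and 0 of 2 at Spi1. NK cell genes had 3 of 25 (12%), with 2 at Klrb1c and 1 at Tyrobp. Erythroid and platelet genes had 2 of 9 (22.2%) and hepatocyte and neural genes 1 of 5 (20%), at Tubb3. Both shares exceeded the 17.1% of the T lineage list, but on very few sites. Stromal genes had 0 of 29. Housekeeping genes had 2 of 60 (3.33%), at B2m and Polr2a, cell cycle genes 1 of 31 (3.23%), at Rrm2, and interferon response genes 3 of 33 (9.09%), with 2 at Irf1 and 1 at Zbp1. The 3 interferon response sites all lay within 500 bp of a replicate 3 peak.

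The eligible sites that replicate 3 did call were described by list as well. They rest on values that the rule used, since both heights had to pass the medians of replicates 1 and 2 and the replicate 3 call separated them from the members, so these levels lend no support to the members' pattern. Over all 28164 such sites the relative height in replicate 3 differed from the mean of replicates 1 and 2 by a median of -0.07 on the log2 scale, and 57.7% of sites were lower in replicate 3. At T lineage and T cell receptor genes the median was -0.25 over 179 sites, with 135 (75.4%) lower in replicate 3. Other lists were about as low: cytotoxic effector and memory genes at -0.23 (73.3% lower), stromal genes at -0.18 (72.4%), CD4 helper genes at -0.18 (71.7%), cytokine receptor and STAT genes at -0.14 (66.7%) and CD8 lineage genes at -0.13 (65.1%). The naive and quiescent list stood at -0.03, the B cell list at 0.00, activation genes at 0.03 and NK cell genes at 0.22. Replicates 1 and 2 also differed from each other, here taken over all eligible sites, members included. The median in replicate 2 relative to replicate 1 was -0.22 at the T lineage list (216 sites) and -0.18 at the CD8 lineage list (52 sites), against -0.05 over all 29566 sites. The replicate 3 medians leave out the members and other sites that replicate 3 did not call, so the sizes of these differences cannot be compared.

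Sequence composition differed between members and equal-height sites. In the central 200 bp of each site, members had a median GC content of 49.0% against 52.5%, and a median of 3 CpG dinucleotides against 4. Sequence that was more than 50% repeat made up 13.0% of members and 5.53% of equal-height sites, against 9.48% of all sites. Among sites over 1 kb from any start the GC medians were 47.5% and 50%. Isolated members had a median of 47.8% and those near a replicate 3 peak 53.5%.

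Motif words of 27 families were searched in the same 200 bp windows on both strands, each match being a description of letters and not of a bound factor. For 5 families the share was higher in members than in equal-height sites with an interval above 0, and for 3 it was lower with an interval below 0. RUNX words (TGTGGT or TGCGGT) were in 30.7% of members and 26.0% of equal-height sites, a difference of 4.73 points (95% interval 1.20 to 8.26), against 23.7% of all sites. TCF7/LEF1 words (CTTTGAA or CTTTGAT) were in 9.46% and 6.01%, a difference of 3.45 points (1.36 to 5.54), against 6.95% of all sites. GATA words (AGATAA) were in 10.3% and 6.01%, against 6.71% of all sites, and MYB words (TAACNG) in 262 members and 201 equal-height sites, a difference of 4.89 points (1.85 to 7.94). MYC/USF words (CACGTG) were higher by 1.92 points (0.207 to 3.64).

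Words of CTCF (CNAGGNGGC) were in 8.02% of members and 11.6% of equal-height sites, a difference of -3.61 points (95% interval -5.94 to -1.28), against 9.37% of all sites. ETS words (AGGAAG or CGGAAG) were in 34.6% and 38.8%, a difference of -4.25 points (-8.03 to -0.471), against 37.1% of all sites. NRF1 words (GCGCNNGCG) differed by -2.25 points (-3.71 to -0.784). The differences of AP-1 (TGANTCA, 0.40), PU.1 (GAGGAAGT, 0), EBF1 (CCCNNGGGA, -1.20), KLF (GGGNGTGG, 1.28) and the E-box CAGNTG (-2.65 points) had intervals that include 0. The E-box difference was larger over 1 kb from a start (-6.92, -11.6 to -2.22), at isolated sites (-6.40, -11.0 to -1.81) and over whole sites (-13.5, -17.3 to -9.61). An ETS word can overlap the PU.1 word, and MYC/USF is a separate E-box word from CAGNTG. When equal-height sites were matched on GC content as well as height, a comparison chosen after seeing the data, the RUNX difference was 4.49 points (0.953 to 8.03) and the CTCF difference -4.49 points (-6.87 to -2.12). The differences were then 0.722 for TCF7/LEF1, 1.84 for GATA, 1.36 for MYC/USF, -0.0802 for ETS, 0.0802 for NRF1 and -0.642 for MYB, all with intervals that include 0. The RUNX interval included 0 against sites not called in replicate 4 (3.37, -0.192 to 6.93) and among sites over 1 kb from a start (4.22, -0.174 to 8.61), while the CTCF interval stayed below 0 in all 6 alternatives run, from -3.37 to -7.62 points. Searched over whole sites, which were wider in the equal-height set, RUNX differed by -1.60 and MYB by -1.20 points.

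**Figure D5:**
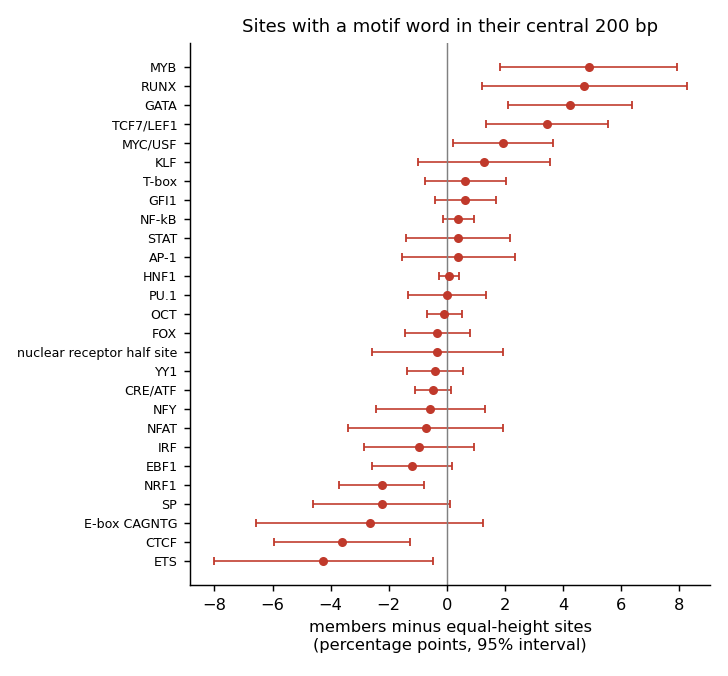
Members minus equal-height sites in the percent of sites with a motif word in their central 200 bp, for 27 families, in percentage points with 95% intervals. MYB, RUNX, GATA, TCF7/LEF1 and MYC/USF lie above 0, and NRF1, CTCF and ETS lie below 0.

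The same words were looked for in the footprints, extended by 5 bp on each side. RUNX words were in 5.57% of the 2530 replicate 1 footprints of members and 3.74% of the 3478 footprints of equal-height sites, and in 5.77% and 5.08% in replicate 2. TCF7/LEF1 words were in 1.54% and 0.949% in replicate 1, and in 1.25% and 0.554% in replicate 2. CTCF words were in 2.77% and 3.62% in replicate 1, and in 2.91% and 4.27% in replicate 2. ETS words were in 71 member footprints (2.81%) and 132 equal-height footprints in replicate 1, and in 3.24% and 3.88% in replicate 2. MYB words, the family with the largest difference over sites, were in 43 member footprints (1.70%) and 52 equal-height footprints of those totals in replicate 1, a higher share in members, but in 1.45% and 1.60% in replicate 2. SP words (GGGCGGG) were in 1.86% and 3.42% in replicate 1, and in 2.08% and 3.65% in replicate 2. The footprints of a site share its sequence and are not independent.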

How the data were processed

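DNase-seq of 4 libraries of 1 group was used, on build mm10 per the labels. The members and the gene lists were chosen with earlier results of these data known. Peak heights in the authors' deposited lists are a signal of the peak's own library; low heights were whole multiples of 1 step per library, from which depth scaling and tag totals were read. The number deposited with each footprint or cut-rate interval was taken as a q-value (false discovery rate), since the file types name one for the cut rate; it was 0.01 on every footprint line, and only cut-rate intervals below 0.05 were listed. The deposited notes derive every list from 1 library's filtered alignment, with no pooling. The aligner and callers stay unnamed, being not given in the sources used here.

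Peaks of the longer list of each library on chromosomes 1 to 19 were merged at an overlap of at least 1 bp. A site was called where a peak lay in it, with the highest peak as its height. Each member was paired once with the closest unused eligible site called in replicate 3, on the log2 heights of replicates 1 and 2. Promoters were taken as 1 kb around any start of GENCODE mouse release 21, other sites were called exonic, intronic or intergenic in that order, and the nearest gene was taken as the nearest protein-coding start. Shares have exact (Clopper-Pearson) 95% intervals and differences have normal-approximation intervals; both treat sites as independent and cover counting error only. Named genes were the 12 highest members, the 10 genes with most members, up to 4 genes of each list and a fixed set. The Trac, joining-segment and unnamed genes, Nr4a3 and the 4 genes among the other observations were named after their values were seen. The merge (beside bedtools 2.31.1), the member rule, unique pairing, footprint counts, cut-rate cover and gaps were tested on simulated data. The closeness of pairs and the 95% intervals were not. The scripts ran under Python 3.11.15 with pandas 2.3.3 and numpy 2.4.6, intervals used scipy 1.17.1 and figures used matplotlib 3.10.9. Alternatives were the shorter lists, other overlaps and heights, each library left out, other comparison sites, windows and cut-rate values. Values of some single genes are not reported here.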

Additional observations from a re-analysis of the deposited data

Results flagged for a closer look

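At the equal-height sites, replicate 4 lay far below the other 3 libraries in 2 of the 18 quantities examined. Chance alone gives such a gap in about 1 in 20 groups of like libraries. That rate does not apply to these 2 quantities, since the choice of sites set replicate 4 apart. A footprint was found in replicate 4 at 6.98% of equal-height sites, against 84.8% to 91.7% in replicates 1 to 3. A cut-rate interval was listed in replicate 4 at 27.1% of them, against 100% in the other 3 libraries. A call in replicates 1, 2 and 3 chose these sites, and replicate 4 had 24.3 M tags, the fewest of the 4; the part of depth in these gaps was not tested.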

How the results depend on the processing

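The 1247 members became 804 with the shorter lists, 2915 at 50% reciprocal overlap, 11283 with no floor on height and 58 above the 75th percentile, and 1402 to 13282 with 1 library left out. The difference in sites within 1 kb of a start, -6.17 points, turned positive at 50% reciprocal overlap (3.19), above the 75th percentile (34.5) and against sites not called in replicate 4 (1.44), was -13.0 with no floor, and ran from -35.1 to 0.785 with 1 library left out. It stayed negative with the shorter lists, in strata of height, with other start windows, with coding starts and among isolated sites. The footprint differences were negative under every alternative run, but their intervals included 0 with the shorter lists and above the 75th percentile. In replicate 1 they were -0.995 (shorter lists), -8.59 (no floor), -1.72 (75th percentile), -1.66 (isolated sites), and -8.49 to -1.70 with 1 library left out. In replicate 2 they were -0.871 (shorter lists), -8.87 (no floor), -1.99 (isolated sites), -2.12 (sites over 1 kb from a start), and -9.84 to -0.986 with 1 library left out. The share of members with a replicate 3 cut-rate interval was 85.8% with the shorter lists, 73.0% at 50% overlap, 16.7% with no floor, 86.2% above the 75th percentile, 19.97% and 18.9% at cut-rate values below 0.01 and 0.001, 15.0% at isolated members, and 30.4% to 39.4% with 1 library left out. Among motifs, MYB turned to -1.20 and RUNX to -1.60 points over whole sites, MYB to -0.642 and NRF1 to 0.0802 when matched on GC, and NRF1 to 0.241 against sites not called in replicate 4. With genes taken as their body plus 25 kb, genes with a member numbered 18 for the T lineage (16 by nearest start) and 4 for CD8 (4), and 0 for CD4 (2), 7 for housekeeping (2), 3 for myeloid (1), 2 for stromal (0) and 2 for hepatocyte and neural genes (1). Isolated sites and the GC matching were chosen after seeing the data. The causes were not tested.

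Leaving out replicate 3 removes the rule that defines the members, and the share of cut-rate intervals was not run there; nor were footprints in a library that was itself left out. No paired analysis was possible because all 4 libraries form 1 group. Heights carry no counts per site, so a missing call sets no limit on weaker cutting, and replicate 4, at 24.3 M tags, called 20647 peaks.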

Other observations

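Members also gathered at genes outside the lists, which were chosen after their values were seen. Plcg1, the phospholipase C that acts downstream of the T cell receptor, had 5 members of 7 eligible sites, with relative heights of 0.273 to 0.478 in replicate 1 and 0.245 to 0.323 in replicate 2. Pik3r5, a regulatory subunit of a phosphoinositide 3-kinase, had 4 of 8, at 0.289 to 0.564 in replicate 1. Cyth1, a cytohesin that activates ARF proteins, had 4 of 7, at 0.355 to 0.511 in replicate 1. Gimap9, of a GTPase family of lymphocytes, had 3 of 4, at 0.335 to 0.599 in replicate 1. The nearest replicate 3 peak was at least 700 bp away at Pik3r5, 2110 bp at Cyth1 and 3460 bp at Gimap9, and 220 bp away at the closest Plcg1 member, the promoter site, which held 3 footprints in replicate 3.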
